A study of Mus musculus with 6 samples.

Results

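Acute-phase and antimicrobial secreted proteins were examined as a group of 10 genes chosen by name: *Saa1*, *Saa2*, *Saa3*, *Lcn2*, *Slpi*, *Hp*, *Ptx3*, *Lbp*, *Orm1* and *Camp*. Of these, 9 were found among the 20327 gene symbols of the count data, and *Camp*, which encodes the antimicrobial peptide cathelicidin, was not analysed here. Acute-phase proteins are plasma proteins whose production changes during infection or tissue injury, classically in the liver, where IL-6 family cytokines act through STAT3 and IL-1 acts through NF-κB and C/EBP factors. Several of them are also made locally in inflamed tissue, where they bind bacterial products, hold back iron from bacteria or restrain the proteases of neutrophils. Lipocalin-2, the product of *Lcn2*, is widely used as a marker of inflammation in mouse colitis.

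The libraries were made from the colon of C57BL/6 mice carrying the *Il11-Egfp* reporter, 9 to 15 weeks old, which drank 1.5% dextran sulfate sodium (DSS, a polymer that injures the colonic epithelium) for 5 days and then plain water. On day 7, cells lacking CD45, CD31, EpCAM and Ter119 were sorted into EGFP+ (IL-11+) and EGFP- (IL-11-) fractions, with 3 libraries in each group. RNA was read by 5′Tag-seq, in which each sequenced tag comes from near the 5′ end of a transcript. The comparison asks how the fibroblasts that switch on *Il11* in colitis differ from their neighbours in the same tissue. Every mouse was exposed to DSS, and untreated colon was not analysed here. The reporter is a bacterial artificial chromosome transgene in which the *Il11* regulatory region drives *Egfp*, kept as a single selected line, so that EGFP stands for the activity of this transgene. The methods describe the EGFP+ sort as not fully pure.

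IL-11- replicates 1, 2 and 3 held 1057170, 1078179 and 1169817 tags, and IL-11+ replicates 1, 2 and 3 held 1046538, 1022851 and 1049048 tags. A floor of 3 tags therefore stood at 2.56 to 2.93 CPM (tags scaled to a common library total), and floors and the Clopper-Pearson intervals of tag shares cover counting error only. Normalized CPM are CPM over the tags of the tested genes after TMM scaling (trimmed mean of M values, which corrects for composition), and a log2 fold change is IL-11+ against IL-11-. *Il11* itself had 28, 51 and 89 tags across the IL-11- replicates versus 1357, 732 and 2658 across the IL-11+ replicates, in the direction of the labels. The *Egfp* cassette lies within an *Il11* exon, so tags of the transgene can be part of these counts.

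*Saa3*, *Lcn2* and *Slpi* were higher in IL-11+ fibroblasts, by 8.65-fold, 6.42-fold and 5.34-fold. *Lbp* and *Ptx3*, both of which encode soluble pattern-recognition proteins, were lower, by 4.22-fold and 2.42-fold. *Saa1* and *Hp* were not called, and *Saa2* and *Orm1* had too few tags for a test. A gene was tested where at least 10 tags were found in at least 3 libraries, and it was called where its adjusted p was under 0.05 with more than a 2-fold change. Of the 7 members tested, 3 were called higher, against 3.44% of all 9334 tested genes (321 genes), and 2 were called lower, against 6.37% (595 genes). The number of genes called lower was 341 without IL-11- replicate 1 and 355 without IL-11- replicate 2, of 8855 and 8837 tested. The 3 IL-11+ libraries stood entirely above or entirely below the 3 IL-11- libraries in 5 of the 7, against 31.2% of all tested genes (2914 genes). Over the 7 tested members the log2 fold change had a median of 0.39, against -0.01 for all tested genes. These counts leave out the members under the filter and are descriptions, because the members were chosen with results of these libraries known. They also include *Slpi*, which passed the filter through its IL-11+ libraries, where it was higher. With 10 tags required in all 6 libraries, 2 members were called higher, beside 220 of 7098 tested genes. In sorted bulk samples, fewer cells of a type and less RNA per cell cannot be told apart.

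**Figure D1:**
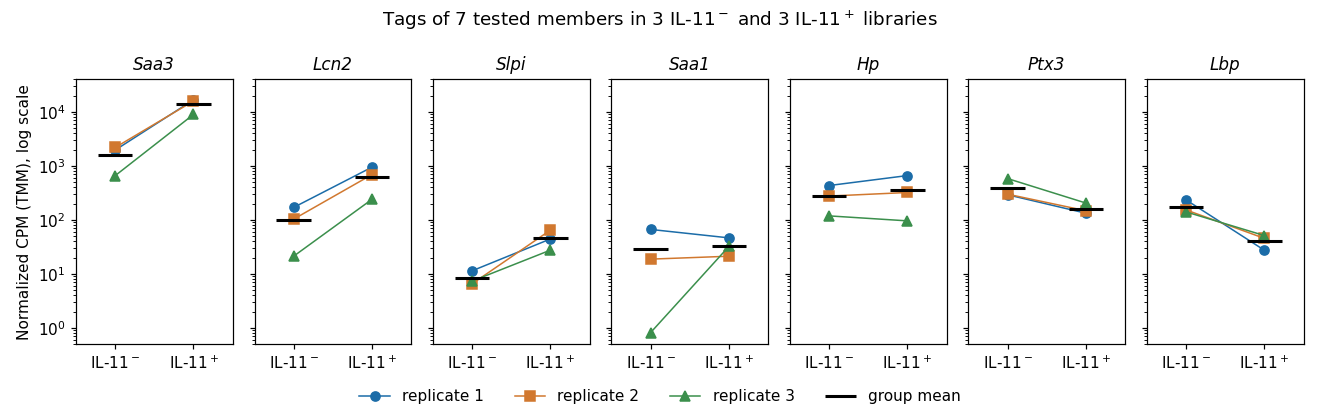
Normalized CPM (vertical axis, log scale) of the 7 tested members in the 3 IL-11- and the 3 IL-11+ libraries; thin lines join libraries with the same replicate number and black bars are group means. *Saa3*, *Lcn2* and *Slpi* stand higher in every IL-11+ library, *Ptx3* and *Lbp* stand lower, and in *Saa3*, *Lcn2* and *Hp* replicate 3 is the lowest of both groups.

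Serum amyloid A proteins travel with high-density lipoprotein, bind retinol and act on leukocytes. *Saa3* is the family member that mice make mainly outside the liver, in macrophages, adipocytes, stromal cells and epithelium. It had 2062, 2335 and 806 tags across IL-11- replicates 1, 2 and 3 versus 15835, 15721 and 9439 across the IL-11+ replicates. All IL-11+ libraries were far above all IL-11- libraries, with replicate 3 lowest in each group. The means were 1610 ± 829 normalized CPM in EGFP- cells and 13920 ± 4275 in EGFP+ cells (mean ± SD, n = 3), giving 3.11 as log2 fold change (SE 0.347, 95% interval 2.38 to 3.84, adjusted p = 4.17e-06, quasi-likelihood test of edgeR after Benjamini-Hochberg adjustment). Within replicate numbers 1, 2 and 3, the IL-11+ library stood 8.53-fold, 7.26-fold and 13.6-fold above the IL-11- library. *Saa3* alone supplied 1.51% (95% Clopper-Pearson interval 1.49 to 1.54), 1.54% (1.51 to 1.56) and 0.90% (0.882 to 0.918) of all tags in the IL-11+ libraries. In the IL-11- libraries its share was 0.195% (0.187 to 0.204), 0.217% (0.208 to 0.226) and 0.0689% (0.0642 to 0.0738), so that *Saa3* was also read many times in EGFP- cells.

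*Saa1* and *Saa2* are the family members of the hepatic acute-phase response. *Saa1* had 70, 20 and 1 tags across IL-11- replicates 1, 2 and 3 versus 44, 21 and 34 across the IL-11+ replicates. The groups overlapped, and the IL-11- group held both the highest and the lowest library. The means were 28.8 ± 34.1 and 33.5 ± 12.7 normalized CPM (mean ± SD, n = 3), giving 0.25 as log2 fold change with a 95% interval from -1.01 to 1.51 (SE 0.600, adjusted p = 0.848, quasi-likelihood test of edgeR after Benjamini-Hochberg adjustment). This interval holds changes of more than 2-fold in either direction. The value was 1.80 without IL-11- replicate 1, and its sign turned to -0.38 without IL-11- replicate 3 and to -0.05 without IL-11+ replicate 1, with no call in any of these fits. *Saa2* was not tested, with 13, 2 and 3 tags in IL-11- and 2 tags in each IL-11+ library, so that 5 of the 6 libraries lay at or under the floor. *Saa4*, listed among the other acute-phase genes and expressed constitutively in mice, was not tested either, with 3 to 5 tags per IL-11- library versus 7 to 13 per IL-11+ library.

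The 3 genes lie together on chromosome 7 (GRCm38, GENCODE M21), *Saa3* from 46711998 to 46715700 on the minus strand, *Saa1* from 46740497 to 46742980 on the minus strand and *Saa2* from 46751790 to 46754313 on the plus strand. In these coordinates *Saa2* begins 8810 bases after the end of *Saa1*, and *Saa1* begins 24797 bases after the end of *Saa3*, an interval that holds *Saa4*. *Saa1* and *Saa2* transcripts were identical at 94.4% of aligned bases, whereas *Saa3* matched *Saa1* at 74.5% and *Saa2* at 74.5%. Of the 50-base windows in the first 300 bases, 41.8% of those of *Saa1* and 32.8% of those of *Saa2* occurred in another gene, against 1.64% for *Saa3*. Counts of *Saa1* and *Saa2* are therefore less certain as single genes, since how tags that match several genes were assigned is not given in the sources used here. Summed to a single feature, a choice made after seeing the data, they had 83, 22 and 4 tags across the IL-11- replicates versus 46, 23 and 36 across the IL-11+ replicates, giving 0.07 as log2 fold change (SE 0.561, adjusted p = 0.957, quasi-likelihood test of edgeR after Benjamini-Hochberg adjustment).

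Lipocalin-2, also called siderocalin or NGAL, binds bacterial siderophores and so withholds iron from bacteria. *Lcn2* (chromosome 2, 32384633 to 32388252, minus strand) had 179, 110 and 26 tags across IL-11- replicates 1, 2 and 3 versus 897, 683 and 253 across the IL-11+ replicates. The groups did not overlap, although the lowest IL-11+ library, replicate 3, came close to the highest IL-11- library, replicate 1. The means rose from 98.6 ± 74.9 to 628.5 ± 359 normalized CPM (mean ± SD, n = 3), giving 2.68 as log2 fold change (SE 0.482, 95% interval 1.67 to 3.69, adjusted p = 0.000622, quasi-likelihood test of edgeR after Benjamini-Hochberg adjustment). As for *Saa3*, replicate 3 was the lowest library of both groups, and within replicate numbers 1, 2 and 3 the ratios were 5.56, 6.69 and 11.3. Without IL-11- replicate 1 the log2 fold change was 3.33 and without IL-11- replicate 3 it was 2.17, with the call kept in each case. The call was weakest with DESeq2 (2.69, adjusted p = 0.031).

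*Slpi* (chromosome 2, 164354070 to 164389095, minus strand) encodes secretory leukocyte protease inhibitor, which blocks neutrophil elastase and also acts against bacteria. It had 12, 7 and 9 tags across IL-11- replicates 1, 2 and 3 versus 42, 64 and 29 across the IL-11+ replicates. The lowest IL-11+ library was above the highest IL-11- library, at low counts throughout. The means were 8.48 ± 2.61 and 45.7 ± 18.7 normalized CPM (mean ± SD, n = 3), giving 2.42 as log2 fold change (SE 0.364, 95% interval 1.65 to 3.18, adjusted p = 0.00011, quasi-likelihood test of edgeR after Benjamini-Hochberg adjustment). *Slpi* entered the test through its IL-11+ libraries, since only 1 IL-11- library reached 10 tags, and it was not tested where 10 tags were required in all 6 libraries. Replicate 3 did not stand apart in *Slpi*: the within-number ratios were 3.89, 9.85 and 3.74.

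Haptoglobin, encoded by *Hp* (chromosome 8, 109575128 to 109579172, minus strand), captures free hemoglobin and is a standard plasma marker of the acute phase. *Hp* had 455, 294 and 145 tags across IL-11- replicates 1, 2 and 3 versus 627, 318 and 101 across the IL-11+ replicates. The groups overlapped completely, with the highest and the lowest of the 6 libraries both in the IL-11+ group and the same order of replicates in each group. The means were 276.8 ± 158 and 361.2 ± 286 normalized CPM (mean ± SD, n = 3), giving 0.38 as log2 fold change with a 95% interval from -0.57 to 1.34 (SE 0.453, adjusted p = 0.647, quasi-likelihood test of edgeR after Benjamini-Hochberg adjustment). Within replicate numbers 1, 2 and 3 the ratios were 1.53, 1.17 and 0.809, and the log2 fold change turned to -0.39 without IL-11+ replicate 1. *Orm1* (chromosome 4, 63344560 to 63348163, plus strand), which encodes the plasma carrier protein orosomucoid, had 1, 0 and 0 tags across the IL-11- replicates versus 5, 1 and 0 across the IL-11+ replicates. It passed the floor in 1 library only and no difference was detectable at this depth.

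Pentraxin 3 and lipopolysaccharide-binding protein recognize microbial molecules in body fluids. Pentraxin 3 marks microbes for uptake, modulates complement and takes part in building the hyaluronan matrix. *Ptx3* (chromosome 3, 66219910 to 66225805, plus strand) had 307, 319 and 712 tags across IL-11- replicates 1, 2 and 3 versus 126, 146 and 216 across the IL-11+ replicates. The groups did not overlap, and replicate 3 was the highest of both groups, the reverse of its place in *Saa3*, *Lcn2* and *Hp*. *Ptx3* fell from 392.8 ± 166 to 162.6 ± 38.3 normalized CPM (mean ± SD, n = 3), giving -1.27 as log2 fold change (SE 0.244, 95% interval -1.78 to -0.76, adjusted p = 0.00112, quasi-likelihood test of edgeR after Benjamini-Hochberg adjustment). Without IL-11- replicate 3, the log2 fold change was -0.88 and *Ptx3* was no longer called, because the change was then under 2-fold, although the adjusted p was at most 0.0113 in every alternative run (quasi-likelihood test of edgeR after Benjamini-Hochberg adjustment, or DESeq2). The ratios within replicate numbers were 0.456, 0.493 and 0.352.

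Lipopolysaccharide-binding protein passes lipopolysaccharide to CD14, which hands it to the TLR4 and MD-2 complex. *Lbp* (chromosome 2, 158306493 to 158332852, plus strand) had 247, 163 and 172 tags across IL-11- replicates 1, 2 and 3 versus 26, 45 and 54 across the IL-11+ replicates. Every IL-11+ library was well below every IL-11- library. *Lbp* fell from 176.9 ± 51.4 to 41.6 ± 12.5 normalized CPM (mean ± SD, n = 3), giving -2.08 as log2 fold change (SE 0.241, 95% interval -2.58 to -1.57, adjusted p = 6.9e-06, quasi-likelihood test of edgeR after Benjamini-Hochberg adjustment). Within replicate numbers 1, 2 and 3 the ratios were 0.117, 0.298 and 0.365. *Lbp* kept its call without each library in turn, between -2.26 and -1.83.

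The members also differed in how they varied within a group. The deviation of each library from its group mean (log2 CPM) was compared between the 6 members averaging 30 tags or more, which leaves out *Slpi*. The 6 libraries may share mice, sorting and depth, so this is a description with no test. *Saa3* and *Lcn2* deviated together (Pearson r = 0.952), and so did *Lcn2* and *Hp* (0.920) and *Saa3* and *Hp* (0.815). *Ptx3* deviated in the opposite direction from *Saa3* (-0.991), *Lcn2* (-0.982) and *Hp* (-0.868). *Saa1*, with a single tag in IL-11- replicate 3, also deviated with *Saa3* (0.779) and *Lcn2* (0.821) and against *Ptx3* (-0.818). *Lbp* followed neither pattern (0.077 with *Saa3* and 0.085 with *Lcn2*). Much of this lies in replicate 3, which was the lowest library of both groups for *Saa3*, *Lcn2* and *Hp* and for 13.6% of all tested genes (1265 genes). It was the highest of both groups for *Ptx3* and for 14.3% of all tested genes (1332 genes), *Il6*, *Lif*, *Il11* and *Tnfaip6* among them. The smooth muscle markers *Acta2*, *Cnn1* and *Myh11*, the epithelial marker *Lgals4* and the fibroblast markers *Lum* and *Thy1* also had this pattern.

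Likeness in pattern was sought for *Saa3* and *Lcn2* among 5062 other genes whose mean reached 30 tags. By the correlation of log2 CPM over the 6 libraries, the genes most like *Saa3* were *Sarnp* (r = 0.998), *Lamb1* (0.997), *Sdc1* (0.996), *Lama1* (0.996) and *Bmp5* (0.993). With the group means taken out, they were *Acadm* (0.999), *Sdc1* (0.996), *Nufip2* (0.992), *Rammet* (0.991) and *Tnrc18* (0.990), so that *Sdc1* appeared in both lists. The genes most like *Lcn2* were *Manbal* (0.998), *Tmf1* (0.997), *Spon1* (0.996), *Morf4l1* (0.993) and *Mmp19* (0.985). With the group means taken out, *Manbal* (0.995), *Tmf1* (0.994) and *Mmp19* (0.995) were again in the list, beside *Mbtps1* (0.993) and, first in rank, *2410006H16Rik* (1 after rounding). Neither *Saa3* nor *Lcn2* was in the list of the other. Values this close may arise among so many genes over 6 libraries, and how often they do was not tested.

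Receptors and binding partners of the members were read from a list of 19 genes, of which 16 were found and 9 tested. Of these 9, 2 were called higher and 2 lower, with a median log2 fold change of -0.18, which is the same with *Cd36* at its bound. Among all tested genes, 3.44% were called higher and 6.37% lower. *Cd14*, the receptor to which *Lbp* delivers lipopolysaccharide, had 10, 4 and 5 tags across IL-11- replicates 1, 2 and 3 versus 36, 31 and 13 across the IL-11+ replicates, the opposite direction from *Lbp* (log2 fold change 2.22, SE 0.465, adjusted p = 0.00239, quasi-likelihood test of edgeR after Benjamini-Hochberg adjustment). The groups did not overlap, again with few tags, and *Cd14* entered the test through its IL-11+ libraries. *Tlr4* and *Ly96*, which encode the signalling receptor and MD-2, were not called (-0.52, SE 0.211, and 0.53, SE 0.388). *Tlr2*, another receptor for serum amyloid A, had 2 to 9 tags and was not tested.

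*Tnfaip6* and *Fgf2* encode partners of pentraxin 3. The *Tnfaip6* product, TSG-6, works with pentraxin 3 in the hyaluronan matrix and had 1453, 1716 and 3298 tags across IL-11- replicates 1, 2 and 3 versus 642, 736 and 1441 across the IL-11+ replicates. The groups did not overlap by a small margin, and replicate 3 was the highest of both, as in *Ptx3* (log2 fold change -1.03, SE 0.263, adjusted p = 0.011, quasi-likelihood test of edgeR after Benjamini-Hochberg adjustment). It lost its call without IL-11- replicate 3 (-0.70), without IL-11+ replicate 1 (-0.84), without IL-11+ replicate 2 (-0.88), without the filter on low counts and with DESeq2. *Fgf2*, whose growth factor product is bound by pentraxin 3, was higher, with 8 to 12 tags per IL-11- library versus 29 to 54 per IL-11+ library (2.05, SE 0.365), and entered the test through its IL-11+ libraries. *Cd36*, a scavenger receptor that binds serum amyloid A, had 10, 15 and 11 tags in IL-11- and 0 tags in every IL-11+ library, which set against a floor of 3 tags per library is at least 3.60-fold lower. It entered the test through its IL-11- libraries. *Slc22a17*, a receptor for lipocalin-2, was not called (-0.18, SE 0.389), and neither were *P2rx7* (-0.41, SE 0.413) and *Grn*, whose progranulin product is protected from elastase by SLPI (0.05, SE 0.185). The other lipocalin-2 receptor gene *Lrp2* and the haptoglobin receptor gene *Cd163* had at most 1 tag in any library.

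Of 24 genes for inducing cytokines, their receptors and transcription factors, 23 were found and 18 tested, with 3 higher, 1 lower and a median log2 fold change near 0 (-0.005). Over all tested genes the shares were 3.44% higher and 6.37% lower. The 3 higher genes include *Il11*, whose reporter defined the groups, so its call follows from the sort. The others were *Lif* and *Il1r1*. *Il1r1*, which encodes the signalling receptor for IL-1, had 249, 246 and 273 tags across the IL-11- replicates versus 515, 502 and 513 across the IL-11+ replicates. Its values were nearly equal within each group (log2 fold change 1.15, SE 0.158, adjusted p = 3.95e-05, quasi-likelihood test of edgeR after Benjamini-Hochberg adjustment). *Lif*, a cytokine of the IL-6 family, had 38, 43 and 203 tags across IL-11- replicates 1, 2 and 3 versus 275, 268 and 559 across the IL-11+ replicates (2.15, SE 0.398, and 3.23 without IL-11- replicate 3). *Il6ra*, the binding chain of the IL-6 receptor, was lower, with 76, 81 and 48 tags against 34, 21 and 24 tags (-1.23, SE 0.285). The cytokine genes *Il1a*, *Il1b*, *Tnf*, *Il17a* and *Il22* had at most 5 tags in any library.

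*Il6* was not called, with 539, 577 and 1496 tags across IL-11- replicates 1, 2 and 3 versus 895, 719 and 2206 across the IL-11+ replicates (0.72, SE 0.336), and was called only without IL-11- replicate 3 (1.23). The groups overlapped through that library. The gene for gp130, *Il6st* (-0.20, SE 0.173), and *Stat3* (0.07, SE 0.156), *Osmr* (0.03, SE 0.173), *Il11ra1* (-0.31, SE 0.219), *Cebpb* (0.32, SE 0.173) and *Nfkb1* (0.27, SE 0.187) were not called. *Nfkbiz*, which encodes IκBζ, a nuclear cofactor needed for *Lcn2* induction, was not called either (-0.41, SE 0.163). *Cebpd* (-0.94, SE 0.178, adjusted p = 0.00103) and the STAT3 feedback inhibitor *Socs3* (-0.84, SE 0.203, adjusted p = 0.00693) had lower values in all IL-11+ libraries and passed the p threshold of the quasi-likelihood test of edgeR after Benjamini-Hochberg adjustment, but not the fold-change threshold. Each passed both in some alternatives, *Cebpd* without IL-11+ replicate 3 (-1.11) and with library size only (-1.01), and *Socs3* without IL-11- replicate 3 (-1.07).

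Other acute-phase plasma proteins numbered 20, with 17 found and 5 tested. Of these, 2 were higher and 1 lower (median log2 fold change 0.48), against 3.44% and 6.37% of all tested genes. *Il1rn*, which encodes the IL-1 receptor antagonist, had 3, 5 and 1 tags across IL-11- replicates 1, 2 and 3 versus 20, 30 and 10 across the IL-11+ replicates (2.85, SE 0.561), and entered the test through its IL-11+ libraries only. *Cp*, for the copper-carrying ferroxidase ceruloplasmin, had 334, 322 and 253 tags against 1105, 747 and 569 tags (1.58, SE 0.240). In both genes the groups were apart and replicate 3 was the lowest of each group, as in *Saa3* and *Lcn2*. *Agt*, for angiotensinogen, was lower, with 62, 39 and 52 tags against 24, 24 and 11 tags (-1.21, SE 0.309), but lost its call without IL-11- replicate 1 (-1.01) and without IL-11+ replicate 3 (-0.88). *Serpina3n* (0.48, SE 0.219) and *C3* (-0.52, SE 0.187) had at least 2267 tags in every library and were not called. The C-reactive protein gene *Crp* and the fibrinogen genes *Fga*, *Fgb* and *Fgg* had at most 3 tags. Of 6 genes for plasma proteins that fall in the acute phase, 5 were found, 2 tested and none called by the quasi-likelihood test of edgeR after Benjamini-Hochberg adjustment, *Trf* at 0.16 (SE 0.247) and *Rbp4* at -0.56 (SE 0.342), neither of them under 0.05 without adjustment or called by DESeq2.

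Other antimicrobial proteins held no called gene. Of 25 listed genes, 15 were found and 4 tested, with a median log2 fold change of -0.69. All 4 passed the p threshold, with adjusted p from 0.00378 for *Rnase4* to 0.0345 for *Ang* (quasi-likelihood test of edgeR after Benjamini-Hochberg adjustment), but stayed within 2-fold, and DESeq2 called none of them either. *Adm*, for the peptide adrenomedullin, had 85, 56 and 107 tags across the IL-11- replicates versus 180, 107 and 113 across the IL-11+ replicates (0.87, SE 0.235), and was called without IL-11+ replicate 2 (1.01) or 3 (1.01). The ribonuclease genes *Ang* (-0.62, SE 0.193) and *Rnase4* (-0.75, SE 0.166) stood lower in all IL-11+ libraries but within 2-fold. *Lgals3*, for galectin-3, stood at the fold-change threshold (-0.98, SE 0.273) and was called lower with the replicate number as a block (-1.02, adjusted p = 0.000404, quasi-likelihood test of edgeR after Benjamini-Hochberg adjustment). It was also called with 10 tags required in all 6 libraries (-1.03), with library size only (-1.06), without IL-11- replicate 2 (-1.13) and without IL-11+ replicate 3 (-1.44). The calprotectin genes *S100a8* and *S100a9*, abundant in neutrophils, were not tested, with 0 to 4 tags per IL-11- library versus 0 to 13 per IL-11+ library.

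**Figure D2:**
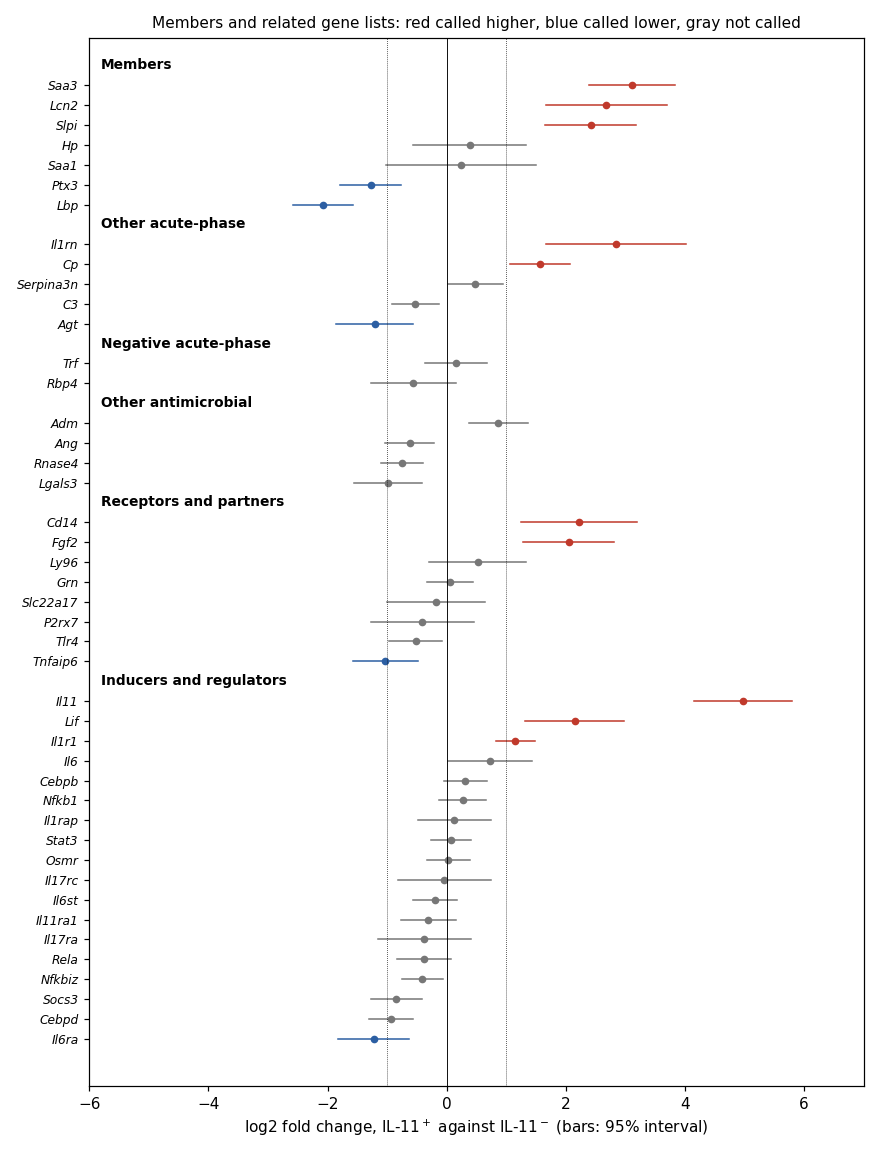
Log2 fold change, IL-11+ against IL-11- (horizontal axis), of the tested members and of tested genes of the related lists; points are estimates from 3 libraries per group, bars are 95% intervals, dotted lines mark a 2-fold change, and red, blue and gray stand for called higher, called lower and not called. *Saa3*, *Lcn2* and *Slpi* lie right of the dotted line with *Il1rn*, *Cp*, *Cd14*, *Fgf2*, *Il11* and *Lif*. Most regulators lie near 0, although *Il1r1* was also called higher (1.155) and *Il6ra* was called lower (-1.225). *Cebpd* (-0.936) and *Socs3* (-0.843) lie left of 0, between the dotted lines. *Cd36*, with 0 tags in every IL-11+ library, is not drawn.

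Because several members are also made by neutrophils, macrophages, epithelium, adipocytes or liver, marker genes of these cells were summed in each library as normalized CPM. Neutrophil markers (5 of 7 found, *Cxcr2* most abundant) summed to 21.96, 16.0 and 18.9 in IL-11- and 25.4, 21.3 and 24.8 in IL-11+ replicates 1, 2 and 3, and the other 4 had at most 3 tags in any library. Macrophage markers (6 of 7, *Cd68*) summed to 11.5, 18.8 and 10.7 against 10.6, 10.2 and 5.72, and leukocyte markers (6, *Laptm5*) to 4.77, 28.3 and 18.9 against 6.36, 5.08 and 4.77, with *Ptprc* at 0 to 7 tags. The neutrophil sum was higher in the IL-11+ library of each replicate number with the groups overlapping, and the leukocyte sums overlapped. The macrophage sums of the groups nearly met, and *Cd68* itself overlapped, with 10, 3 and 4 tags against 7, 8 and 4 tags. Epithelial markers (11 of 12, *Lgals4*) summed to 32.5, 25.4 and 56.7 against 9.54, 15.2 and 26.7, with *Epcam* at 0 or 1 tag. The only tested epithelial gene, *Lgals4*, was called lower (-1.26, SE 0.339). It lost this call without IL-11- replicate 3, without IL-11+ replicate 1 and without IL-11+ replicate 2. Hepatocyte markers (2 of 5, *Apoa1*) had 0 or 1 tag in each library. The part of these cells in the higher *Saa3*, *Lcn2* and *Slpi* counts was not tested.

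Several other sums moved in the direction of *Lbp* and *Ptx3*. Mural and smooth muscle markers (7, *Rgs5*) summed to 3583, 3599 and 3878 normalized CPM in IL-11- and 475.9, 445.7 and 508.3 in IL-11+ replicates 1, 2 and 3, and 6 of the 7 were called lower. The other, *Kcnj8*, had a higher value in the IL-11+ library of each replicate number (0.71, SE 0.227) and was not called. Adipocyte markers (3 of 5, *Fabp4*) summed to 135.6, 52.8 and 23.8 against 8.48, 7.11 and 2.86, with *Adipoq* at 2 tags in a single IL-11- library and at 0 in the others, and the only tested gene, *Fabp4*, was lower. Endothelial markers (5 of 6, *Tek*) summed to 36.3, 25.4 and 37.0 against 18.0, 8.12 and 6.68, with *Pecam1* at 0 or 1 tag, and mesothelial markers (6, *Wt1*) to 15.3, 5.65 and 20.5 against 1.06, 0 and 1.91. The only tested endothelial gene, *Tek*, was called lower (-1.585, SE 0.392, and -2.295 without IL-11+ replicate 1). It lost this call without IL-11+ replicate 2 (-1.394). The part of these cells in the lower *Lbp* and *Ptx3* counts was not tested.

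Fibroblast markers (8, *Dcn* most abundant) summed to 20920, 20750 and 23560 normalized CPM in IL-11- and 41070, 32860 and 29550 in IL-11+ replicates 1, 2 and 3, higher in every IL-11+ library. Of the 8, 2 were called higher, *Col3a1* (1.04, SE 0.204) and *Pdpn* (1.06, SE 0.173), and both were under 2-fold without IL-11- replicate 1 (0.83 and 0.94) and with library size only. *Pdpn* was also under it without IL-11+ replicate 1 (0.97). *Thy1* was not called (0.88, SE 0.218), but was called higher without IL-11- replicate 3 (1.19) and without IL-11+ replicate 2 (1.005). *Lum* went the other way, with lower values in all IL-11+ libraries (-0.64, SE 0.201), and was not called. The sorted cells of both groups thus carried the defining transcripts of fibroblasts, and the part of the fibroblast share in the higher *Saa3*, *Lcn2* and *Slpi* counts was not tested. Erythroid markers (6, *Hbb-bs*) varied between libraries, with sums of 90.7, 0 and 305.5 in IL-11- and 19.1, 2.03 and 19.1 in IL-11+ replicates 1, 2 and 3, in another order than *Hp*.

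Promoter sequence was compared because *Saa3* and *Lcn2* were called higher whereas *Saa1*, a neighbour and relative of *Saa3*, was not called. The RefSeq promoter table (GRCm38.p6) matched 6 of the 9 members, *Saa1*, *Saa2*, *Saa3*, *Lcn2*, *Slpi* and *Ptx3*, and held no entry for *Hp*, *Lbp* and *Orm1*. In the 250 bases before the start, the C/EBP motif TTGCNNAA was found on either strand in all 6, against 9.56% of 32851 promoters. Counted from the start, the base of the match farthest upstream lay at -99 in *Saa3*, -182 in *Saa1*, -183 in *Saa2*, -216 in *Lcn2*, -241 in *Slpi* and -57 in *Ptx3*, and it did not overlap another motif searched. The STAT motif TTCNNNGAA (7.02% of promoters), the TATA motif TATAAA (12.4%) and the NF-κB consensus (7.25%) had no match in these 6 windows. Genes that were higher, lower and not called thus shared the same match, which is a description of letters and not of binding. The promoters of *Saa1* and *Saa2* were identical at 95.6% of aligned bases, those of *Saa1* and *Saa3* at 59.4% and those of *Saa2* and *Saa3* at 61.9%. The windows of *Lcn2* and *Slpi*, placed by the RefSeq start, lie inside the longer GENCODE gene and are not shown. The stretches upstream of every GENCODE start of the gene are shown 5′ to 3′ on the gene's strand for the *Saa* genes, with the C/EBP match in capitals: *Saa3* at chr7:46715701-46715926 (minus strand), *Saa1* at chr7:46742981-46743230 (minus strand) and *Saa2* at chr7:46751583-46751789 (plus strand).
Saa3: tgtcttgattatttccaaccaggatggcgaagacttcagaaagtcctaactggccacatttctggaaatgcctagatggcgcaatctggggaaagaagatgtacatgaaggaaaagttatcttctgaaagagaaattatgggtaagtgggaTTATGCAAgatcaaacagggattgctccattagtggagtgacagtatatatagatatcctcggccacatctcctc
Saa1: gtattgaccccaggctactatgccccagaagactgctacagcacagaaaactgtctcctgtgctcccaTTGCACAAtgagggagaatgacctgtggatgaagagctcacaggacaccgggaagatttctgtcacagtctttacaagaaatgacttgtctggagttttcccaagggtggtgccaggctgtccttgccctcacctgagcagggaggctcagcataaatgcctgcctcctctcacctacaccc
Saa2: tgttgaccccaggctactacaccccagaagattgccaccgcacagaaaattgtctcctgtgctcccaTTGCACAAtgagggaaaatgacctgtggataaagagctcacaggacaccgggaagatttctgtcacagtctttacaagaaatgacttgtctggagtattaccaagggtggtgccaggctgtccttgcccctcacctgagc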

How the data were processed

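RNA of EGFP+ and EGFP- colon cells was measured in 6 libraries, 3 per group, grouped by the EGFP fraction in the labels. After trimming (cutadapt 1.18) and alignment to mm10 RefSeq transcripts in a single orientation (Bowtie2 2.2.5), the authors deposited raw tag counts per gene symbol, with no normalization. How multi-mapping tags were treated, and whether molecular identifiers were used, is not given in the sources used here. Totals of 1022851 to 1169817 tags limit the precision for genes near 10 tags.

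Here the counts were analysed in R 4.3.3 with edgeR 4.0.16 and limma 3.58.1. Genes reaching 10 tags in 3 or more libraries were kept, library sizes were recomputed, TMM factors were applied, and the groups were compared with edgeR's quasi-likelihood test and Benjamini-Hochberg adjustment over 9334 genes. Calls required adjusted p under 0.05 with more than 2-fold change. SEs were derived from the F statistic and 95% intervals from the t distribution. The steps were also run on simulated data, and the outcome of that run is not reported here. Alternatives were DESeq2 1.42.0, RLE factors, library size only, an iterative TMM after TCC, other filters, no fold-change threshold, a replicate block, each library left out, and *Saa1* with *Saa2* summed. The labels number the libraries 1 to 3 in each group and the methods name 3 mice. Same-numbered libraries deviated together from their group means, with correlations of 0.231, 0.186 and 0.268 across 5063 genes. The numbers were therefore taken to pair the libraries, although the labels do not state a shared mouse. Libraries with different numbers were not compared in this way. The main fit has no block, since the methods state none, and the fit with the block is an alternative.

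The members and the gene lists were chosen with earlier results of these data known. All members are named. Of the lists, genes called are named, with known receptors and regulators of members and the most abundant marker and defining markers near 0. *S100a8*, *S100a9*, *Crp*, the fibrinogen genes and *Saa4* were named after their values were seen. Motifs and shared windows were read from RefSeq promoters and GENCODE M21 transcripts. Protein identity was not analysed here. A list of markers is not reported here.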

Additional observations from a re-analysis of the deposited data

How the results depend on the processing

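*Saa3*, *Lcn2*, *Slpi* and *Lbp* kept their direction and their call in every alternative in which they were tested, with log2 fold changes of 2.72 to 3.39, 2.17 to 3.33, 2.08 to 2.69 and -2.26 to -1.83. The number of members called higher was 3 in every alternative except with 10 tags required in all 6 libraries, where it was 2, since *Slpi* was then not tested. The number of members called lower ranged from 1 to 2 with a library left out, and was 1 without EGFP-Negative replicate 3, where *Ptx3* stood at -0.884. The sign of *Saa1* turned without EGFP-Negative replicate 3 (-0.376) and without EGFP-Positive replicate 1 (-0.0501), and that of *Hp* turned without the same libraries (-6.67e-05 and -0.387), with ranges over the libraries left out of -0.376 to 1.8 and -0.387 to 0.849. The cause was not tested. Over all genes, 638 were called higher with no fold-change threshold. With 10 tags required in all 6 libraries, which leaves 7098 genes, 256 were called lower. With a library left out, the number called lower ranged from 341 to 579, at 341 without EGFP-Negative replicate 1 and 355 without EGFP-Negative replicate 2. With the replicate block, 337 genes were called higher and 648 lower, *Saa3* stood at 3.23 (SE 0.154), and of the members and the genes of the related lists only *Lgals3* changed its call. Scaling by library size only moved the median of all genes to -0.10, and changed no call of a member. At this depth, *Saa2* and *Orm1* could not be compared.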
